A study of Mus musculus with 4 samples.

Results

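The expression of matrix metalloproteinases (MMPs) and their tissue inhibitors (TIMPs) was examined in articular cartilage after injury, in a study that compared how young and adult cartilage respond to it. The group held 10 of the 24532 genes in the deposited table, which were the 6 protease genes Mmp2, Mmp3, Mmp9, Mmp12, Mmp13 and Mmp14 and the 4 inhibitor genes Timp1, Timp2, Timp3 and Timp4, each matched by its gene symbol. All 10 genes were above 0 in at least 1 library. RNA-seq was performed on cartilage of wild-type C57BL/6 male mice in 4 groups, sham and injured, each at a young and an adult age. Young mice were 3 weeks old; for adult mice the sample labels give 12 weeks in the title and 14 weeks in the age field, and the study's methods give 10 weeks at surgery. The methods describe a full-thickness cartilage injury (FTCI) made with a needle in the patellar groove of the femur, with cartilage taken 3 days later, whereas the labels of the same samples name surgery on the medial meniscus (DMM), and the adult sham label covers days 3 to 14. Cartilage of 10 injured or 5 uninjured mice was pooled into 1 library per group, so that no standard deviation or p-value can be given and no difference below has a replicate check.

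MMPs are zinc-dependent enzymes that cut collagens, proteoglycans and other components of the extracellular matrix. Most are secreted as inactive proenzymes, and TIMPs block the active enzymes by binding to their catalytic site. In cartilage MMP-13 is the main collagenase of type II collagen, and both MMP-13 and MMP-3 are well known from osteoarthritis. MMP-9 is abundant in osteoclasts and neutrophils, and MMP-12 is known as the elastase of macrophages.

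Mmp13, Mmp12 and Mmp3 lie in the cluster of Mmp genes on chromosome 9. In GENCODE M21 on GRCm38, the assembly of mm10, Mmp13 spans bases 7272514 to 7283331, Mmp12 7344381 to 7369499 and Mmp3 7445822 to 7455975, all on the plus strand. Mmp9 lies on chromosome 2 (164940780 to 164955850), Mmp2 on chromosome 8 (92827291 to 92853420) and Mmp14 on chromosome 14 (54431612 to 54445364). Of the inhibitors, Timp1 (chromosome X, 20870166 to 20874735), Timp3 (chromosome 10, 86300372 to 86349506) and Timp4 (chromosome 6, 115241892 to 115252205) each lie inside a synapsin gene on the opposite strand, and Timp2 is on chromosome 11 (118301069 to 118355740). The synapsin genes Syn1, Syn3 and Syn2 had levels of at most 0.752, 0.256 and 0.130 FPKM in any library, and Timp3 shares 1733 of its 8144 exonic bases with Syn3.

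The promoters of the 3 cluster members are shown because the AP-1 and TATA motifs were found in them and in no other member with a listed promoter. They are RefSeq sequences on GRCm38.p6, plus strand, from 250 bases before to 50 bases after the annotated start. Capitals mark the AP-1 motif, which is TGACTCA or, read from the other strand, TGAGTCA, and the TATA motif TATAAA on the strand of the gene.
Mmp13, chr9:7272264-7272563: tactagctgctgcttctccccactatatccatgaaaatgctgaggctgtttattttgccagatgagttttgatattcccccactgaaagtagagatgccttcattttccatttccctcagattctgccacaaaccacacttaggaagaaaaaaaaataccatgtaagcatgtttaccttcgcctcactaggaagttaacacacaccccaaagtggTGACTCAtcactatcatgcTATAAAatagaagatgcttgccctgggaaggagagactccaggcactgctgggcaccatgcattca
Mmp12, chr9:7347124-7347423: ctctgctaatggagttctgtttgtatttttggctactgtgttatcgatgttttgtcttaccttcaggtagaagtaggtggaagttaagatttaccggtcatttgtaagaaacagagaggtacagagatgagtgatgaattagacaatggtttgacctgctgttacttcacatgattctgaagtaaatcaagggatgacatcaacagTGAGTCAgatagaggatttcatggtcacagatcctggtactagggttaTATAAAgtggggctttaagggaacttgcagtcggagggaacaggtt
Mmp3, chr9:7445572-7445871: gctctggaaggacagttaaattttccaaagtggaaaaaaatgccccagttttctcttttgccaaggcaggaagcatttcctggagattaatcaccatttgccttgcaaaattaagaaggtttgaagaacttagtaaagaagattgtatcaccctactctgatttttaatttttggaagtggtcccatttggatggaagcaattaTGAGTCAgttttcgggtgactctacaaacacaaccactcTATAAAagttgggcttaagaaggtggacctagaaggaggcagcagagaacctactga

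With the annotated start as position 0, the AP-1 motif began at −35 in Mmp13, −44 in Mmp12 and −46 in Mmp3, and a TATA motif followed it at −16, 4 and −7. A second annotated Mmp12 promoter, upstream of this one, held neither motif. Promoters were listed for 8 of the 10 members, and the AP-1 motif was found in these 3 and in none of Mmp14, Timp1, Timp2, Timp3 and Timp4, of which Timp1 was also at least 2-fold higher after injury at both ages. Of all 32851 promoters in the table, 5.20% held the AP-1 motif and 0.624% held both motifs. Over the 10 Mmp genes of the cluster the AP-1 motif occurred in 7, and over the 12 other Mmp and Timp genes with a listed promoter it occurred in none. Only these exact letters were sought, and a sequence that departs from them was not counted, such as tgagtaa in the Timp1 promoter. A match is only a description of these letters and does not show binding, and the lack of a match does not show that AP-1 is not bound.

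Expression is given in FPKM, in which fragments are divided by transcript length and by library size, so that levels can be compared between genes. Differences are log2 ratios of FPKM + 1 between 2 libraries, and a gene was counted as higher or lower at 2-fold or more, a log2 ratio of 1. On this scale the change of a low gene is understated. The general level was not the same in all 4 libraries. Across 10891 genes of at least 1 FPKM in every library, the median log2 ratio was −0.04 after injury at the young age and 0.23 at the adult age, −0.30 between the sham libraries (adult over young) and 0.07 between the injured libraries (young over adult), and the ratios below can be read against these values. Library depth was estimated from the regular steps of the lowest values of FPKM times transcript length. A step, in FPKM times bases of transcript, ranged from 32.45 (adult sham) to 38.6 (adult injured), so that the libraries were of similar depth.

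In injured cartilage 6 of the 10 genes were at least 2-fold higher than in sham cartilage in young mice, and 6 were in adult mice, with 5 genes in common. In young mice these were Mmp3, Mmp9, Mmp12, Mmp13, Timp1 and Timp3, against 4.57% of the 18181 genes above 0 in any library. In adult mice they were Mmp3, Mmp9, Mmp12, Mmp13, Mmp14 and Timp1, against 6.90% of all genes. No member was 2-fold lower in young mice, where 1.27% of all genes were, and 1, Timp4, was in adult mice, where 1.46% of all genes were. By median of ratios the adult shares were 4.43% higher and 2.90% lower. Mmp12, at 0 in both sham libraries, could only be higher after injury. The median log2 ratio of the 10 genes was 1.51 in young and 1.83 in adult mice, compared with 0.00 and 0.14 over all 18181 genes.

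**Figure D1:**
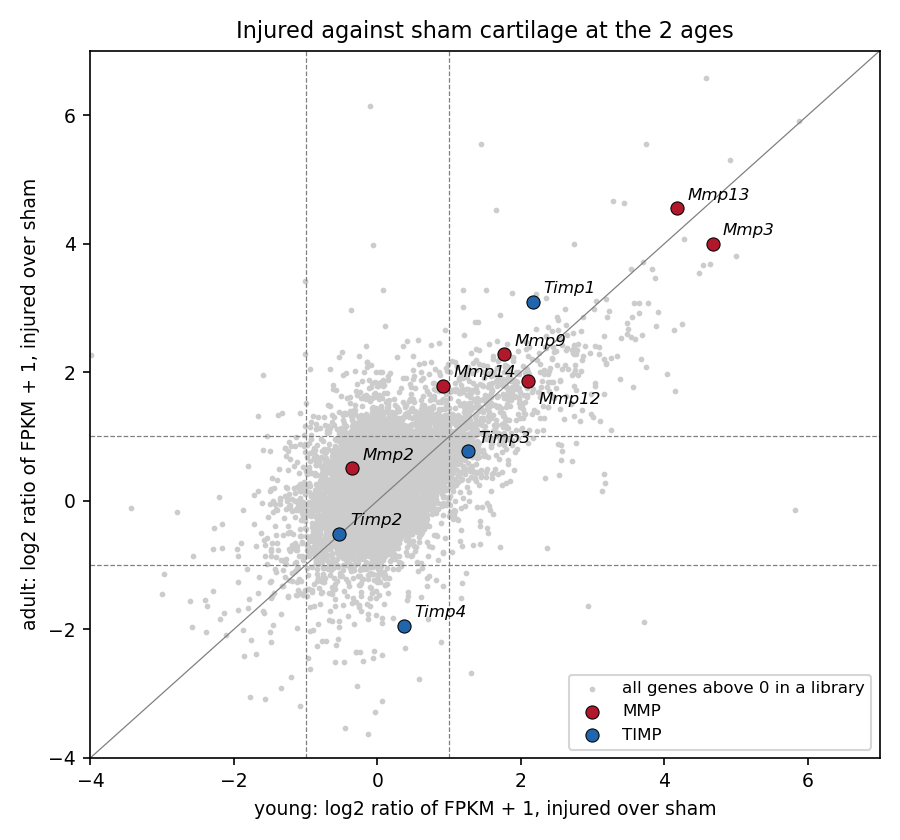
Log2 ratios of FPKM + 1 between injured and sham cartilage in young (x axis) and adult mice (y axis), with the 6 MMP genes in red, the 4 TIMP genes in blue and all other genes in grey. Dashed lines mark 2-fold and the solid line equal ratios, 9 genes lie outside the plotted range of −4 to 7, and Mmp13 and Mmp3 sit at the upper right while Timp4 lies below the line.

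Mmp13, the collagenase, was at 25.3 FPKM (sham) and 473.7 FPKM (injured) in young mice and 21.2 FPKM (sham) and 518.2 FPKM (injured) in adult mice. Both injured libraries were far above both sham libraries, and the 2 ages had similar levels in each state. After injury its log2 ratio was 4.17 (young) and 4.55 (adult). Adult over young sham cartilage gave −0.25, a sign that turned to 0.17 with median-of-ratios scaling. Young over adult injured cartilage gave −0.13, so that as deposited the adult level was the lower one in sham and the higher one in injured cartilage. In injured cartilage Mmp13 was among the most abundant transcripts, at rank 173 of the 24532 genes in young and rank 153 in adult mice, compared with 2425 and 2436 in sham cartilage.

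Mmp3, which encodes stromelysin-1, an enzyme that cuts proteoglycans and activates other proMMPs, was at 4.99 FPKM (sham) and 151.5 FPKM (injured) in young mice and 41.2 FPKM (sham) and 673.4 FPKM (injured) in adult mice. At each age the injured library was the higher one, and in each state the adult library was the higher one. The log2 ratios after injury were 4.67 (young) and 3.997 (adult). Adult sham exceeded young sham cartilage by 2.82 on the log2 scale, and young injured was below adult injured cartilage with a log2 ratio of −2.14. Mmp3 was the single member that differed 2-fold or more in all 4 comparisons, and it moved from rank 8149 in young sham to rank 106 in adult injured cartilage. Of its transcript, 14.6% of the 31-base words also occur in another gene, and the gene sharing the most is Mmp10, which reached no more than 1.62 FPKM.

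Mmp9, the gelatinase of osteoclasts and neutrophils, was at 66.5 FPKM (sham) and 227.4 FPKM (injured) in young mice and 40.6 FPKM (sham) and 201.3 FPKM (injured) in adult mice. The log2 ratios after injury were 1.76 and 2.28, and the injured levels of the 2 ages lay within a log2 ratio of 0.18, which turned to −0.01 as TPM, where every library has one total, and to −0.02 with quantile normalization. Mmp12, the macrophage elastase, had the value 0 in sham cartilage of either age and stood at 3.30 FPKM (young) and 2.63 FPKM (adult) after injury. Its level was low even after injury. No fold of FPKM can be given against 0, and its count as 2-fold higher rests on the pseudocount, since 0.1 kept the call at both ages and 5 ended it at both.

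Mmp14 encodes the membrane-bound MT1-MMP, which activates proMMP-2 at the cell surface together with TIMP-2. It was at 52.3 FPKM (sham) and 99.01 FPKM (injured) in young mice and 38.5 FPKM (sham) and 135.5 FPKM (injured) in adult mice. The log2 ratio after injury was 0.91 in young mice, just below 2-fold, and 1.79 in adult mice. Mmp2, the gelatinase that it activates, was at 176.9 FPKM (sham) and 138.3 FPKM (injured) in young mice and 108.9 FPKM (sham) and 155.0 FPKM (injured) in adult mice. Its log2 ratios after injury were −0.35 in young and 0.50 in adult mice, so that the 2 ages went opposite ways without reaching 2-fold. By median of ratios the adult value was only 0.17. Mmp2 was the most abundant of the 10 genes in young sham cartilage and the sixth in both injured libraries. With 1 library per group, it is not known which neighbours in such an order differ beyond their spread.

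**Figure D2:**
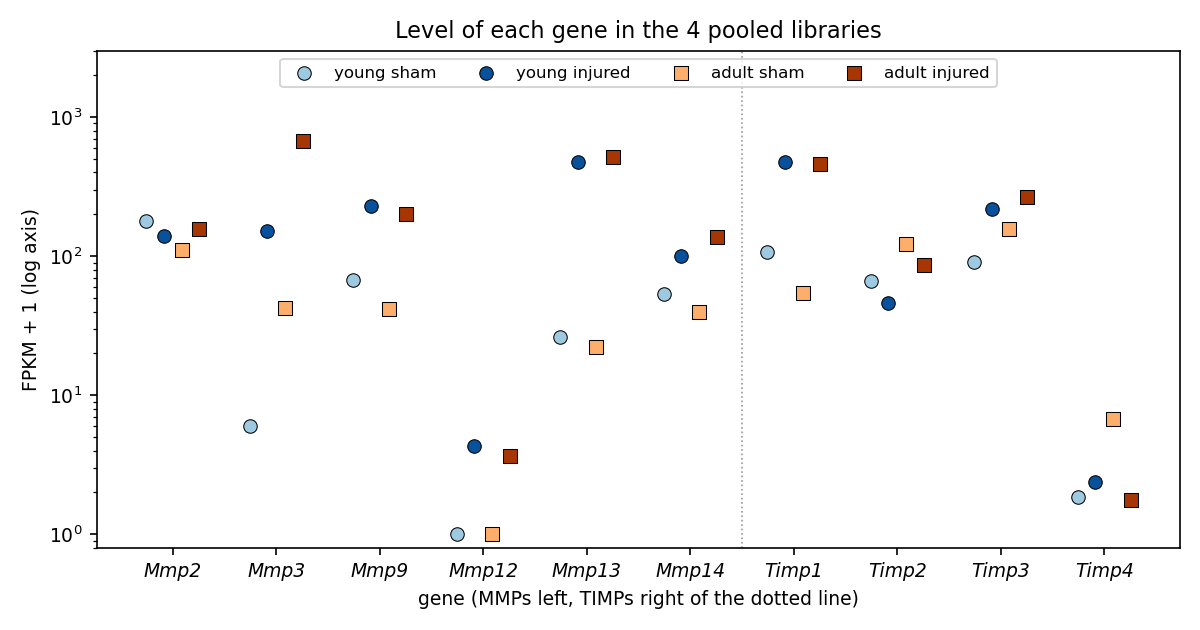
FPKM + 1 on a log axis for the 10 genes, with 1 point for each of the 4 pooled libraries and no error bars because each group is 1 library. Injured points lie above sham points at both ages for Mmp3, Mmp9, Mmp12, Mmp13, Mmp14, Timp1 and Timp3, and below them for Timp2.

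Among the inhibitors, Timp1, the TIMP best known as an inducible gene of inflammation, was at 105.8 FPKM (sham) and 477.2 FPKM (injured) in young mice and 53.0 FPKM (sham) and 461.1 FPKM (injured) in adult mice. After injury its log2 ratio was 2.16 (young) and 3.10 (adult). The injured libraries were nearly level with each other, at a log2 ratio of 0.05 that fell below 0 in all 3 rescalings, whereas adult sham was lower than young sham cartilage with a log2 ratio of −0.98. Timp3 encodes a TIMP that is retained in the matrix and also inhibits ADAM17 and the aggrecanases. It was at 90.0 FPKM (sham) and 216.7 FPKM (injured) in young mice and 154.6 FPKM (sham) and 265.5 FPKM (injured) in adult mice, with log2 ratios after injury of 1.26 and 0.78.

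Timp2, which takes part in the activation of proMMP-2, was lower in injured than in sham cartilage at both ages without reaching 2-fold. Its levels were 65.4 FPKM (sham) and 45.01 FPKM (injured) in young mice and 121.4 FPKM (sham) and 84.7 FPKM (injured) in adult mice, and the log2 ratios after injury were −0.53 in young and −0.51 in adult mice. Both adult libraries were above both young libraries. Adult sham exceeded young sham cartilage by 0.88 on the log2 scale.

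Timp4, the TIMP with the most restricted expression, was at 0.850 FPKM (sham) and 1.38 FPKM (injured) in young mice and 5.77 FPKM (sham) and 0.759 FPKM (injured) in adult mice. Adult sham cartilage thus stood apart from the other 3 libraries. If 1 step is 1 fragment, these levels rest on about 123, 200.5, 978 and 108 fragments. After injury its log2 ratio was 0.37 (young) and −1.95 (adult), and adult against young sham cartilage gave 1.87. Both comparisons that reached 2-fold share the adult sham library, and a pseudocount of 5 in place of 1 ended both calls (−0.90 and 0.88). Skeletal muscle markers moved in the same way, with a summed level of 6 genes of 562.8 FPKM (sham) and 549.8 FPKM (injured) in young mice and 1405 FPKM (sham) and 383.9 FPKM (injured) in adult mice. All 6 were at 1 FPKM or more in every library, 4 were 2-fold higher in adult than in young sham and 5 were 2-fold lower after injury in adults, against 2.66% and 1.46% of all genes (5.86% and 2.90% by median of ratios). The muscle markers were not recounted by median of ratios. The part of muscle RNA in the Timp4 values was not tested.

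The summed levels of the 6 protease genes and the 4 inhibitor genes were compared within each library, where scaling between libraries plays no part. The proteases summed to 325.9 FPKM (sham) and 1093 FPKM (injured) in young mice and 250.4 FPKM (sham) and 1686 FPKM (injured) in adult mice. The inhibitors summed to 262.0, 740.3, 334.8 and 812.1 FPKM in the same order. The protease sum was thus 1.24 times the inhibitor sum in young sham and 1.48 times in young injured cartilage, and 0.748 times in adult sham and 2.08 times in adult injured cartilage. The ratio was higher in injured cartilage at both ages, and adult cartilage had both the lowest and the highest value. These are transcript levels, which say nothing of how much enzyme was active.

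**Figure D3:**
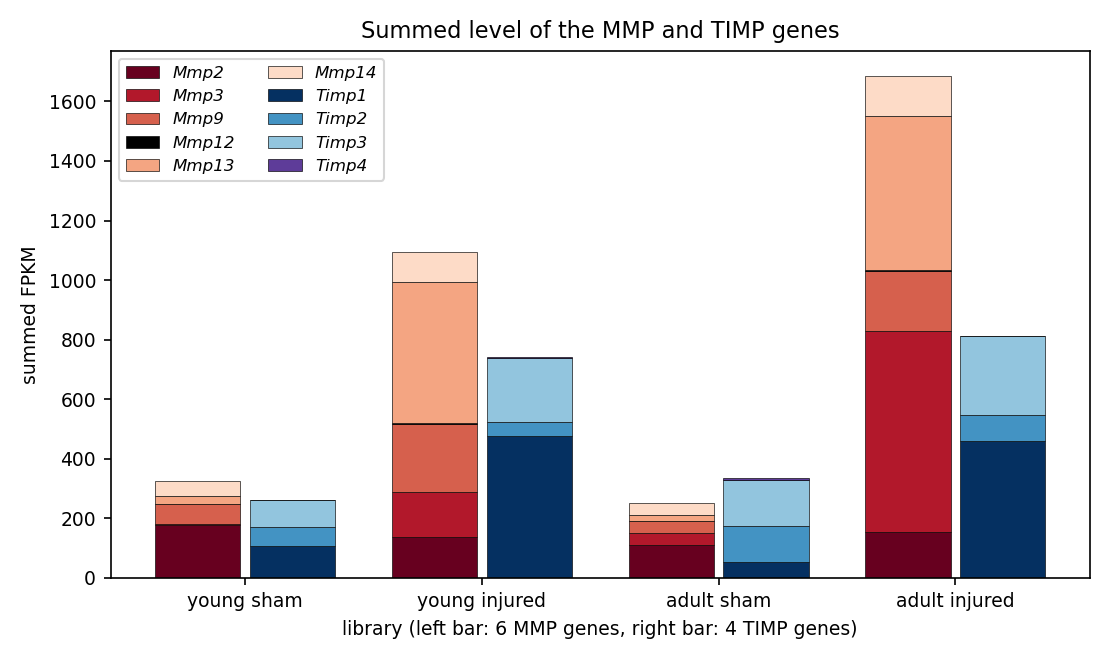
Summed FPKM of the 6 MMP genes (left bar) and the 4 TIMP genes (right bar) in each of the 4 pooled libraries, divided by gene. The MMP bar is the shorter one only in adult sham cartilage (250.4 against 334.8 FPKM) and is longest in adult injured cartilage (1686 FPKM).

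The make-up of both sums also differed. Mmp2 made up 54.3% of the protease sum in young sham and 43.5% in adult sham cartilage, but 12.7% and 9.19% in young and adult injured cartilage. Mmp3 and Mmp13 together made up 9.30% of it (sham) and 57.2% (injured) at the young age and 24.9% (sham) and 70.7% (injured) at the adult age. Mmp13 was the larger of them in young injured cartilage, with 43.3% against 13.9% for Mmp3, and Mmp3 was the larger in adult injured cartilage, with 39.9% against 30.7%. Timp1 made up 64.5% of the inhibitor sum in young injured and 56.8% in adult injured cartilage, compared with 40.4% and 15.8% in the sham libraries. Mmp14 relative to Timp2, the pair that acts on proMMP-2, was 0.799 (sham) and 2.20 (injured) at the young age and 0.317 (sham) and 1.60 (injured) at the adult age.

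The ages were also compared directly. In sham cartilage Mmp3 and Timp4 were at least 2-fold higher in adult mice, 2 of the 10 genes against 2.66% of all genes, and no member was 2-fold lower, against 10.6% of all genes. These shares depended on the scaling, with 5.86% higher and 5.13% lower by median of ratios and 5.04% and 5.27% by quantiles. After median-of-ratios scaling Timp2 (1.32) and Timp3 (1.21) also exceeded a log2 ratio of 1, and with quantile normalization Timp2 did (1.07). In injured cartilage no member was 2-fold higher in young mice, where 3.09% of all genes were, and Mmp3 was the 1 member that was 2-fold lower, where 1.80% of all genes were. As TPM these shares were 2.33% and 2.55%. Timp2, with a log2 ratio of −0.90 as deposited, passed −1 in all 3 rescalings. The injury ratios of the ages, which share no library, differed by 0.93 for Timp1, 0.88 for Mmp14, 0.86 for Mmp2, 0.52 for Mmp9 and 0.38 for Mmp13, with the larger value in adult mice, whereas Mmp3 (−0.67), Timp3 (−0.48) and Timp4 (−2.31) had the larger value in young mice. Mmp12 is left out, since both sham values are 0. None of these 8 signs turned with the scaling, but by median of ratios the difference was 0.07 for Mmp13, 0.21 for Mmp9, 0.54 for Mmp2, 0.57 for Mmp14, 0.62 for Timp1, −0.80 for Timp3 and −0.97 for Mmp3. As TPM it was 0.59 for Mmp13, −0.27 for Timp3 and −0.46 for Mmp3. For Timp2 it was 0.02, and ran from −0.31 by median of ratios to 0.23 as TPM. The pseudocount also mattered. With 5 FPKM the injury ratios of Mmp3 were nearly level, at 3.97 (young) and 3.87 (adult), and those of Timp4 were 0.13 and −0.90. Differences between the ages could not be tested with 1 library per group. Cell type markers also differed between the ages. In adult sham cartilage 8 of 12 chondrocyte markers were 2-fold lower and 1 higher than in young sham cartilage, while 5 of 8 osteoblast and 4 of 6 hypertrophic chondrocyte markers were 2-fold higher and 1 hypertrophic marker, Panx3, was 2-fold lower. Of 10 macrophage markers 3 were 2-fold higher and 1 lower in adult than in young sham cartilage. In young injured cartilage 6 chondrocyte markers were 2-fold higher and 1 lower than in adult injured cartilage, and 5 hypertrophic, 5 osteoblast and 4 of 8 osteoclast markers were 2-fold lower. Ibsp and Alpl are in both the hypertrophic and the osteoblast list. All marker counts were made on FPKM as deposited only. The part of these cell types in the Mmp and Timp differences between the ages was not tested.

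The other Mmp genes were then examined. Of 17 further Mmp genes, 12 were above 0 in at least 1 library, with median log2 ratios after injury of 0.34 (young) and 0.36 (adult). After injury Mmp10 and Mmp19 passed 2-fold upwards in the young pair of libraries, and Mmp19 and Mmp23 did in the adult pair. Mmp10 was listed at 0 in young sham cartilage, so that it could only be higher after injury and its call rests on the pseudocount. No gene of the list passed 2-fold downwards. Over all genes the shares were the 4.57% and 6.90% higher and 1.27% and 1.46% lower given above. Mmp19, a protease of basement membranes, was at 0.318 FPKM (sham) and 9.26 FPKM (injured) in young mice and 1.29 FPKM (sham) and 10.2 FPKM (injured) in adult mice. Mmp8, the collagenase of neutrophils, was at 6.45, 10.4, 2.81 and 4.87 FPKM, short of 2-fold at both ages. Mmp16, a membrane-bound MMP, was the only one of the 17 that differed 2-fold between the sham libraries, with 7.46 FPKM (young) against 0.698 FPKM (adult).

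Within the chromosome 9 cluster, which spans 427.1 kb and 10 Mmp genes, 6 genes were above 0 in at least 1 library. These were Mmp13, Mmp12, Mmp3, Mmp10, Mmp8 and Mmp27. Mmp13, Mmp3 and Mmp8 were above 0 in every library and higher in injured than in sham cartilage at both ages. Mmp12 and Mmp27 were listed at 0 in both sham libraries, so that they entered through the injured libraries and their direction is no result. The same holds for the young direction of Mmp10, which was listed at 0 in young sham cartilage. Mmp10, a stromelysin gene close to Mmp3, went from a listed 0 to 1.62 FPKM at the young age and from 0.046 to 0.664 FPKM at the adult age. Mmp1a, Mmp1b, Mmp20 and Mmp7 were listed at 0 in all 4 libraries. Among the genes listed at 0, Mmp1a, Mmp1b and Mmp7 have the AP-1 motif in a promoter, and among those above 0, Mmp8 and Mmp27 do not.

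**Figure D4:**
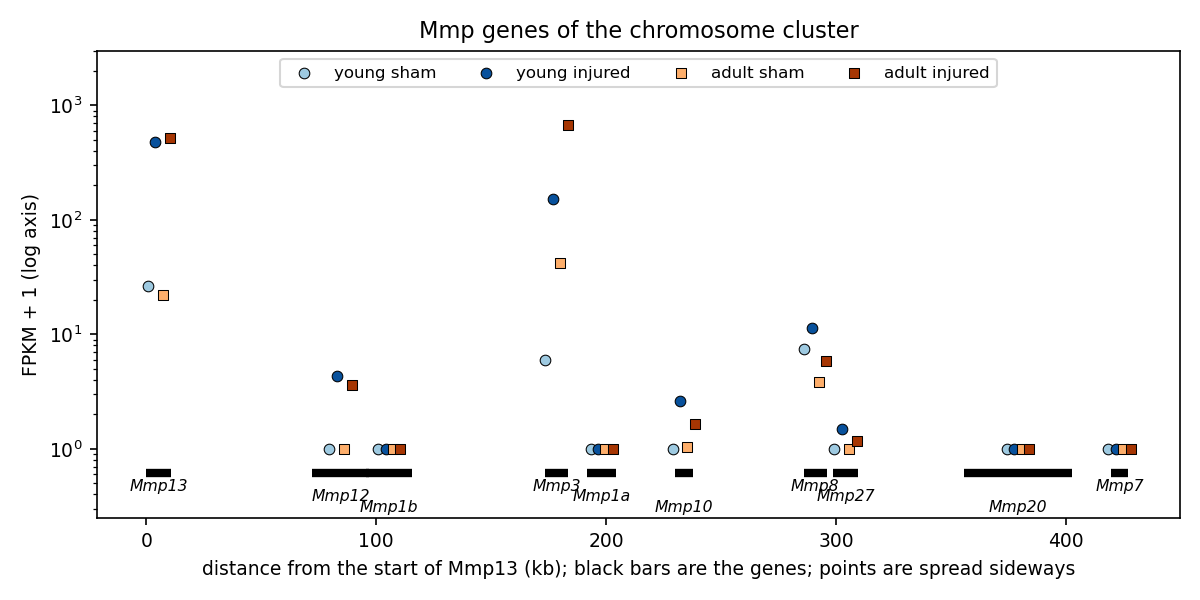
FPKM + 1 on a log axis for the 10 Mmp genes of the cluster against their distance from the start of Mmp13 in kb, with 1 point for each of the 4 pooled libraries. Mmp13 and Mmp3 reach the highest levels, and Mmp1a, Mmp1b, Mmp20 and Mmp7 lie at 0 FPKM throughout.

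Genes that act upstream of MMPs were followed in a list of 15 inducers, of which 14 were above 0. After injury 5 were at least 2-fold higher at the young age (4.57% of all genes) and 6 at the adult age (6.90%), with no gene 2-fold lower (1.27% and 1.46%). The adult share of all genes was 4.43% by median of ratios, a scaling in which the list was not recounted. As deposited, Tnf (1.07), Fosl1 (1.10), Osm (1.17) and Runx2 (1.21) passed only narrowly in adult mice. The list's median log2 ratio was 0.47 (young) and 0.83 (adult), against 0.00 and 0.14 over all genes. Il1b, the cytokine that induces Mmp3 and Mmp13 in chondrocytes, was at 0.394 FPKM (sham) and 8.27 FPKM (injured) in young mice and 0.453 FPKM (sham) and 22.2 FPKM (injured) in adult mice. Osmr, a receptor subunit for oncostatin M, had log2 ratios of 2.11 (young) and 1.97 (adult). The AP-1 subunit genes Fos (−0.22 and 0.39) and Jun (0.49 and 0.30) did not reach 2-fold, while Fosl1, listed at 0 in young sham and at 0.283 FPKM in adult sham cartilage, stood at 0.687 FPKM (young) and 1.76 FPKM (adult) after injury. Of 18 genes for activation, uptake and other inhibition of MMPs, 3 were 2-fold higher and 1 lower after injury in young mice, and 4 higher and 2 lower in adult mice, against 4.57% and 1.27% of all genes in young and 6.90% and 1.46% in adult mice. The median of this list was 0.16 (young) and 0.41 (adult). The urokinase gene Plau and its receptor gene Plaur, which act in the plasmin pathway of proMMP activation, had log2 ratios of 2.73 and 1.95 (young) and 1.99 and 1.99 (adult). Reck, a membrane-anchored MMP inhibitor, fell by 1.00 on the log2 scale in young mice and had a log2 ratio of −0.44 in adult mice.

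Markers of other cell types that express these genes moved with injury. All 12 chondrocyte markers were at 1 FPKM or more in every library, with Matn3 lowest in adult injured cartilage at 1.48 FPKM. Their sums were 22687 FPKM (sham) and 20777 FPKM (injured) at the young age and 15561 and 13385 FPKM at the adult age. After injury 1 of them, Matn1, was 2-fold lower in young mice, and 5 were 2-fold higher in adult mice. Of these 5, Col9a2 (1.06) and Col11a1 (1.02) passed only narrowly. For all lists of markers, the shares of all genes are the 4.57% and 6.90% higher and 1.27% and 1.46% lower given above, with 4.43% and 2.90% in adult mice by median of ratios. The markers were counted on FPKM as deposited only, and not recounted by median of ratios. The 10 macrophage markers summed to 185.6 FPKM (sham) and 1623 FPKM (injured) in young mice and 250.6 FPKM (sham) and 1397 FPKM (injured) in adult mice, and 8 were 2-fold higher after injury at each age. The 8 osteoclast markers summed to 228.3, 500.7, 334.3 and 1168 FPKM, of which 3 (young) and 6 (adult) passed 2-fold upwards. The 10 neutrophil markers summed to 1228, 2502, 1622 and 1958 FPKM, of which 3 and 1 did, and the 8 fibroblast markers to 1641, 3657, 1745 and 6457 FPKM, of which 2 and 3 did, while 2 of them, Dpt and Clec3b, were 2-fold lower in adult mice. The 6 markers of hypertrophic chondrocytes, which express Mmp13, summed to 1185, 3357, 8018 and 12171 FPKM, and 1 was 2-fold higher after injury at each age, Spp1 in young and Col10a1 in adult mice, while Ihh was 2-fold lower in adult mice. The 8 osteoblast markers summed to 824.4, 1537, 5786 and 6284 FPKM with 2 genes 2-fold higher at each age, and the 5 endothelial markers to 14.4, 72.9, 16.5 and 60.6 FPKM with all 5 higher. No marker of these 8 lists was listed at 0 in any library. In pooled tissue a change in the number of cells of one type and a change in RNA per cell cannot be told apart, and the part of these cells in the Mmp and Timp values was not tested.

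**Figure D5:**
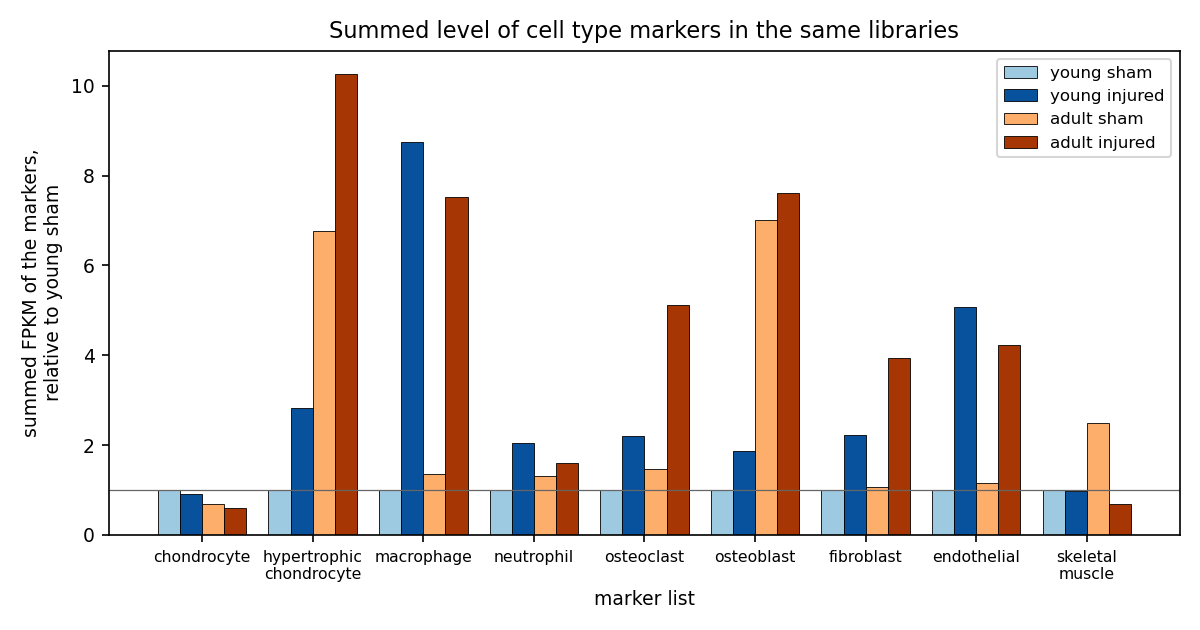
Summed FPKM of 9 lists of cell type markers in the 4 pooled libraries, each divided by its value in young sham cartilage. The macrophage list is high in both injured libraries (1623 and 1397 FPKM), and the muscle list is highest in adult sham cartilage (1405 FPKM).

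For each member the 2 genes nearest in pattern were sought, with 5 FPKM as the lowest mean level, by the root mean square difference of log2(FPKM + 1) profiles centred on their own mean over the 4 libraries. Nearest to Timp4 were the muscle genes Ckm (0.15) and Atp2a1 (0.16), and nearest to Mmp3 were the metallothionein genes Mt2 (0.67) and Mt1 (0.73), which were still far from it. Hmox1, which encodes heme oxygenase-1, was nearest to Mmp13 (0.25), Lcp1, a leukocyte actin-bundling gene, to Timp1 (0.14), and Ncf1, a subunit gene of the phagocyte NADPH oxidase, to Mmp12 (0.05). Mmp12 was at 0 in both sham libraries, so that its profile is set by the pseudocount and its nearness to Ncf1 is no result. Within 0.25 of Mmp12 lay 56 genes. Nearest to the others were Slmap and Kif1b for Mmp2, Lipa and Ly6e for Mmp9, Sh3pxd2b and Nfkbiz for Mmp14, Gabarapl1 and Map1lc3a for Timp2, and Sh3bp2 and AI413582 for Timp3. With 4 libraries such a likeness can be common: 2781 genes lay within 0.25 of Mmp2.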

How the data were processed

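The authors deposited FPKM for 24532 genes in 4 libraries, each prepared with a stranded mRNA kit and sequenced in pairs of 100 bases. The submitters' processing notes name HISAT2 2.1.0, StringTie 1.3.4d, STAR and SAMtools and the build mm10, without the role of each. FPKM are already divided by transcript length and by mapped fragments, and no scaling between libraries was added. Whether counting used strand is not given in the sources used here. Fragment counts were not used here, so no counting error is given.

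Each column was matched to its library by name. Log2 ratios of FPKM + 1 were calculated in 4 comparisons with a 2-fold threshold and no test, since each group is 1 library. The alternatives were pseudocounts of 0.1 and 5 FPKM, a filter of 1 FPKM in at least 1 library, thresholds of 1.5-fold and 3-fold, and 3 rescalings (to TPM, by median of ratios and by quantiles). The 10 members, the lists, the markers and the motifs were chosen with earlier results of these data known. Named genes are the members, genes of the lists, genes that overlap or adjoin a member, and the 2 genes nearest in pattern to each member. The ratio and scaling steps were tested on simulated data. Python 3.11.15, numpy 2.4.6, pandas 2.3.3 and matplotlib 3.10.9 were used.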

Additional observations from a re-analysis of the deposited data

Results flagged for a closer look

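Mmp2 and Timp4 went opposite ways after injury in the 2 ages, as deposited and after each of 3 rescalings. The adult log2 ratio minus the young one was 0.86 for Mmp2, where neither age reached 2-fold, and −2.31 for Timp4, where adult mice did. By median of ratios the adult ratio of Mmp2 was only 0.17. With 1 library per group the difference was not tested.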

How the results depend on the processing

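The members counted as 2-fold higher after injury stayed within 1.5 times of 6 at both ages under all 8 alternatives. The share of all genes moved more. In young mice it ran from 1.89% with a pseudocount of 5 FPKM to 9.99% with 0.1 FPKM. In adult mice it ran from 2.39% with a pseudocount of 5 FPKM to 17.9% with a 1.5-fold threshold. With a pseudocount of 5 FPKM, Timp4 no longer passed, which left 0 members lower after injury in adult mice and 1 higher in adult than in young sham cartilage (0.704% and 1.24% of all genes). For adult against young sham cartilage, 4 members were higher with median-of-ratios scaling (5.86% of all genes) and with a 1.5-fold threshold (6.54%), and the members lower numbered 1 with TPM (Timp1, 11.3% of all genes) and 3 with a 1.5-fold threshold (25.1%), both near the general share. For young against adult injured cartilage, 2 members were lower (Mmp3 and Timp2) with each of the 3 rescalings (2.20% to 2.55% of all genes) and with a 1.5-fold threshold (5.51%). The other 54 of 64 counts stayed within 1.5 times of the reported ones. Of 200 recalculated member ratios 11 crossed 2-fold, and none that had passed 2-fold changed sign. The protease to inhibitor ratio changed little with quantile normalization, to 1.24, 1.47, 0.758 and 2.17. No paired analysis was possible because each group is 1 library.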

Other observations

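Genes that the proteases and inhibitors act on were also examined, as lists chosen with earlier results known. Of 11 matrix substrates, injury at the young age came with 4 that were at least 2-fold higher and at the adult age with 7, and with none that was 2-fold lower. Over all genes 4.57% (young) and 6.90% (adult) were 2-fold higher, the latter 4.43% by median of ratios, and 1.27% and 1.46% were 2-fold lower. The lists were not recounted by median of ratios, and as deposited Col1a2 (1.08) passed only narrowly in adult mice. The median log2 ratio of the 11 genes was 0.58 (young) and 1.38 (adult). Fn1, which encodes fibronectin, was at 226.3 FPKM (sham) and 1869 FPKM (injured) in young mice and 441.8 FPKM (sham) and 3803 FPKM (injured) in adult mice. Col2a1, the gene of type II collagen, which MMP-13 cuts, stood at 9349 (sham) and 7903 FPKM (injured) at the young age and at 3173 and 3750 FPKM at the adult age. Col10a1, the gene of hypertrophic cartilage, likewise stood at 337.9 and 302.2 FPKM, then 458.7 and 2446 FPKM. Of 9 ADAM and ADAMTS genes whose products TIMPs bind, 2 were 2-fold higher after injury in young mice and 4 in adult mice, against the same shares, and their median log2 ratio was 0.44 and 0.97. Adam8, which is expressed by leukocytes, had log2 ratios of 2.50 and 2.86, and Adamts4, an aggrecanase gene, 1.24 and 1.51.

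A2m, the gene of the broad protease inhibitor alpha-2-macroglobulin, differed more between the ages than any of the 4 TIMP genes. It was at 51.7 FPKM (sham) and 27.9 FPKM (injured) in young mice and 0.899 FPKM (sham) and 1.52 FPKM (injured) in adult mice. The log2 ratio of adult to young sham cartilage was −4.80, and that of young to adult injured cartilage was 3.52.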
